A study of Mus musculus with 8 samples.

Results

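Podoplanin is a mucin-type transmembrane glycoprotein that is carried by lymphatic endothelium, by reticular fibroblasts and by some epithelial cells. Here the RNA of the thymic epithelial cells (TEC) of 16-week-old mice with the most podoplanin on their surface was compared with that of the TEC with the least. The cells were chosen by RNA, and the groups by the podoplanin tag. A 16-week cell entered where Epcam, Krt8, Krt18 and Krt5 together gave at least 3 unique molecular identifiers (UMIs, 1 per captured RNA molecule) and more than Col1a1, Col1a2, Col3a1 and Dcn together. In addition, Psmb11 and Prss16, which mark cortical TEC (cTEC), had to make up less than 0.1% of its UMIs. This left 3954 of the 9953 cells of the data set, 1148 in replicate 1 and 2806 in replicate 2. The same rule applied to the 1-week wells gave 665 cells, 352 and 313.

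The data were CITE-seq counts from thymic stroma of C57BL/6 mice aged 1 and 16 weeks, for which no treatment is named, and mRNA and DNA tags carried by 27 staining reagents (antibody-derived tags, ADT) were counted in the same droplets. The stroma had been depleted of CD45+ cells, and CD45- Ter119- cells were sorted with EpCAM1+ cells in the majority. Per the study's methods, the thymi of an age formed 1 pool that was loaded on 2 wells, so replicates 1 and 2 are wells of the same pool. All p-values given here therefore cover the spread between wells and not the spread between mice. The wells held 1430 to 4738 cells and 21281389 to 45480790 RNA UMIs. Of the barcodes, 15 occurred in more than 1 well, and these covered 5 of the 16-week cells compared.

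Medullary TEC (mTEC) form the compartment in which developing T cells are tested for self-reactivity. Less mature mTEC carry basal keratins and CCL21, the chemokine that attracts thymocytes from the cortex. Mature mTEC carry MHCII, CD80 and the regulator Aire and transcribe many tissue-restricted genes, and beyond them lie cells that resemble tuft, microfold, endocrine, gut or skin cells. Podoplanin binds CLEC-2 on platelets, holds CCL21 at the cell surface and connects to actin through ezrin, radixin and moesin. Pdpn, its gene, lies on chromosome 4 of GRCm38 from 143267431 to 143299564 on the minus strand.

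The tag that ranked the cells is a run of 15 bases, read as a barcode on the antibody. Its sequence is shown with that of the tag nearest to it, because it shares the longest run of letters with it, and capitals mark the 8 bases that both hold.
Podoplanin: GGGCGATTtagtgtg
MadCAM1: ttGGGCGATTaagaa
The shared run starts at base 1 of the podoplanin tag and at base 3 of the MadCAM1 tag, so the 2 differ at 11 positions when read in place. No other tag shared a run of more than 6 bases with the podoplanin tag, and the closest in place, the Epcam tag, differed from it at 6 positions. The tags behind the other main readouts were, for UEA1, the lectin that binds mTEC (read through a streptavidin tag), and for CD49a, the integrin alpha 1 chain:
UEA1: aacctttgccactgc
CD49a: ccattcatttgtggc

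Podoplanin was taken as a centred log ratio (CLR), the log2 of the cell's podoplanin count plus 1 minus the mean of that value over all 27 tags of the cell. Within each well the cells were ranked and split into 4 rank groups of 25%, from group 1 (podoplanin-low) to group 4 (podoplanin-high). The median podoplanin count rose from 3 through 6 and 12 to 51 in replicate 1 and from 1 through 3 and 8 to 32 in replicate 2. No count at all was seen in 9.06% and 29.3% of the podoplanin-low cells, and in no podoplanin-high cell. The groups touch at their borders. In replicate 1 the last cell inside the podoplanin-high group had 23 podoplanin counts of 3780 ADT counts, and the first cell outside had 14 of 591, both at a CLR of 1.58. In replicate 2 these cells had 32 of 5515 and 15 of 1630 counts, both at a CLR of 1.24. At the lower border the CLR was -0.78 inside and -0.77 outside in replicate 1 and -1.21 on both sides in replicate 2.

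The UEA1 tag, read here for the name medullary, was lower in podoplanin-high cells by median count and by mean CLR. Only as a share of ADT counts summed over a group was it not lower. The median UEA1 count was 2085 and 1652.5 in podoplanin-low cells (replicates 1 and 2) and 153 and 118 in podoplanin-high cells. Only 25.4% and 24.0% of podoplanin-high cells lay above the median UEA1 count of their well, against 69.0% and 66.8% of podoplanin-low cells. The mean CLR of UEA1 differed by -2.54 and -2.70. As a share of all ADT counts summed over the cells of a group, however, in which cells rich in tags weigh most, UEA1 did not fall, with 25.3% and 26.1% in podoplanin-low and 25.3% and 28.4% in podoplanin-high cells. The cells are therefore called here 16-week TEC low in Psmb11 and Prss16, and no cell type name is given to the podoplanin-high group. An Epcam UMI was found in 84.2% and 83.0% of all of them. After thinning each cell to 2000 UMIs, the share with an Epcam UMI was 57.8% and 55.8% in the podoplanin-high and 58.9% and 58.3% in the podoplanin-low group. Epcam is 1 of the genes that chose the cells, so these shares are a description and no check of their type.

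The other tags enter the CLR that ranked the cells, so they are described and not tested. The median MHCII count went from 5883 to 524 in replicate 1 and from 4278.5 to 374 in replicate 2 between the podoplanin-low and the podoplanin-high group. CD80, a costimulatory protein of mature mTEC, went from 42 to 2 and from 32 to 1, and CD40 from 28 to 4 and from 23 to 3. These are raw counts, from cells that also held fewer ADT counts in all. As a share of the ADT counts summed over a group, MHCII went from 63.8% and 63.9% to 36.2% and 37.1% and CD80 from 0.562% and 0.569% to 0.211% and 0.211%. CD40 moved little on this scale, from 0.434% and 0.425% to 0.405% and 0.346%. In the other direction, CD49a went from 4 to 18 and from 2 to 13, CD73 from 1 to 7 and from 1 to 6, and Sca1 from 79 to 223 and from 55 to 163. Of the 26 other tags, 13 had a higher and 11 a lower mean CLR in podoplanin-high cells in both wells, while 8 had a higher and 9 a lower median count. The total ADT count was lower in podoplanin-high cells, with medians of 2035 and 1384 against 9816 and 7303. This total ran opposite to the CLR of podoplanin, with a Spearman correlation of -0.45 over 1148 cells and -0.46 over 2806 cells. All these cells share a pool and a staining.

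**Figure D1:**
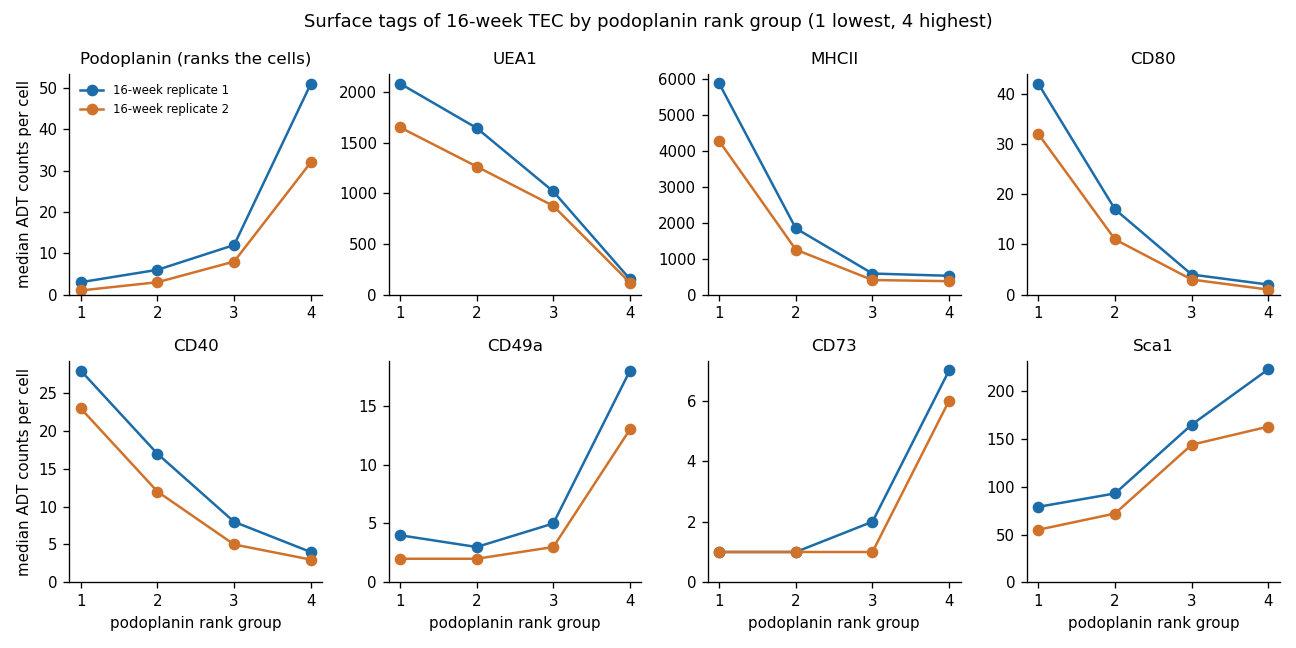
Median ADT counts per cell (vertical axes, linear, from 0) of 8 tags in the 4 podoplanin rank groups (horizontal axes, 1 lowest, 4 highest), with a line for each 16-week replicate. UEA1, MHCII, CD80 and CD40 fall towards rank group 4, where podoplanin, CD49a, CD73 and Sca1 are highest.

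Podoplanin-high cells also held more RNA, with medians of 8895 and 7728 UMIs against 6221 and 5759.5, and a lower share of mitochondrial UMIs (4.84% and 5.81% against 8.47% and 9.76%). Equal numbers of both groups were therefore drawn from bins of like RNA depth, which kept 229 cells of each group in replicate 1 and 581 in replicate 2. Their UMIs were summed to 4 libraries of 2475148 to 5367593 UMIs, and levels below are in CPM, the UMIs of a gene per 1000000 UMIs of such a sum. Differences are log2, podoplanin-high minus podoplanin-low, with the standard error (SE) and the adjusted p of edgeR's quasi-likelihood test with the well as a block. In such sums, more cells with a transcript and more transcript per cell cannot be told apart.

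Pdpn RNA followed its protein. It stood at 17.4 and 13.8 CPM in the podoplanin-low sums and at 109 and 89.1 in the podoplanin-high sums. Both podoplanin-high sums lay above both podoplanin-low sums, by 2.67 ± 0.15 (SE, adjusted p = 3.11e-08). Among cells thinned to 2000 UMIs, a Pdpn UMI was found in 3.83% and 2.99% of rank group 1 and in 17.8% and 14.6% of rank group 4, with exact 95% intervals of 13.5 to 22.7% and 12.02 to 17.4% for the latter. These intervals cover counting error only. Per cell, the Pdpn share of UMIs and the podoplanin CLR had a Spearman correlation of 0.35 in replicate 1 and 0.30 in replicate 2.

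Across the transcriptome, 3200 of 15361 genes tested were higher in podoplanin-high cells (20.8%) and 4093 were lower (26.6%), at an adjusted p under 0.05. With so large a background, a list is read below against these shares and against the median difference of all genes, -0.0020. DESeq2 on the same sums called 1126 genes higher and 1984 lower, all of them among the calls of edgeR. Ranked by the podoplanin count alone, cells gave 2207 higher and 3200 lower genes.

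Among genes with at least 50 UMIs over the sums and without Gm and Rik symbols, Scn1a had the largest increase. Scn1a, a sodium channel subunit, went from 12.1 and 5.03 CPM in podoplanin-low to 143 and 141 in podoplanin-high cells (4.23 ± 0.22, adjusted p = 1.79e-08). Fmod, the matrix proteoglycan fibromodulin, went from 3.64 and 4.29 to 94.7 and 61.6 (4.15 ± 0.22). Ackr4, a scavenging receptor for CCL19, CCL21 and CCL25, went from 18.2 and 12.5 to 203 and 184 (3.71 ± 0.14, adjusted p = 2.61e-09). In each of these 3 genes both podoplanin-high sums lay above both podoplanin-low sums. Nrtn, the growth factor neurturin, rose by 3.41 ± 0.12 and Prelp, another matrix proteoglycan, by 2.37 ± 0.17. Ackr4, Fmod, Prelp, Nrtn and Scn1a were a list taken from an earlier look at these data, so that 5 of 5 rose is a description and not independent evidence.

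Other genes among the 12 with the largest increase were Kcnk2, a potassium channel (3.67 ± 0.18), Igfbp2, a binding protein of insulin-like growth factors (3.61 ± 0.15), and F3, tissue factor of the clotting cascade (3.58 ± 0.19). F3 stood at 8.08 and 14.7 CPM in podoplanin-low and at 156 and 139 in podoplanin-high cells. Aldh1a1, which makes retinoic acid, rose by 3.36 ± 0.33 from 1.21 and 2.98 to 24.0 and 24.6. Plcxd1 (4.12 ± 0.62), Serpinb6c (3.55 ± 0.43), Zfp57 (3.49 ± 0.62) and Frmpd1os (3.35 ± 0.57) complete the 12, with no sum above 14.8 CPM. Scn1a UMIs were found in 105 of 229 and 243 of 581 podoplanin-high cells against 9 and 17 podoplanin-low cells, and the richest cell held 5.01% and 2.66% of the podoplanin-high UMIs.

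Genes of basal epithelium were higher. Trp63, the p63 transcription factor that maintains basal epithelial cells, went from 78.4 and 84.0 to 358 and 378 CPM (2.18 ± 0.10, adjusted p = 9.14e-09). Krt14 rose from 394 and 363 to 1194 and 1155 (1.64 ± 0.08) and Krt5 from 408 and 434 to 1141 and 1199 (1.48 ± 0.08), and Krt5 is also one of the genes that chose the cells. Of the 11 genes of the Ccl21a and keratin list, 10 were higher and none lower, with a median of 1.48. The highest after Trp63 was Apoe, the lipid carrier apolipoprotein E, at 2.08 ± 0.08. Plet1 alone did not pass (-0.26 ± 0.21, adjusted p = 0.333). After matching on RNA and ADT totals, 7 of the 11 were higher (median 0.74). In Ccl21a-rich cells, those above the median Ccl21a share of their well, 5 were higher (median 0.42). Ccl21a, which chose these cells, is itself among the 11. Without cells holding a UMI of other cell types 7 were higher and 1 lower (median 0.91). At 1 week 5 of the 9 tested were higher and 2 lower.

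The basal adhesion list, the integrins and laminins by which basal cells attach to matrix, had 9 of 10 genes higher and none lower, with a median of 0.77. Lamb3 went from 31.1 and 31.3 to 95.1 and 105 (1.69 ± 0.13) and Lama3 from 36.4 and 35.2 to 101.9 and 95.2 (1.46 ± 0.13). Itgb4, the integrin beta 4 chain of hemidesmosomes, rose by 1.40 ± 0.12. Col17a1, the hemidesmosome collagen, did not pass, at -0.22 ± 0.15. Fewer of the 10 were higher with cells matched on RNA and ADT totals (5, median 0.73), without cells holding a UMI of other cell types (4, median 0.55) and in Ccl21a-rich cells (2, median 0.29), and none was lower in these. At 1 week 4 were higher and 1 lower.

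The podoplanin partners did not move as 1 group. Of the 10 tested, 4 were higher and 1 was lower, with a median of 0.22. Among the 4 is Ccl21a, which also stands in the keratin and chemokine lists. Among the 3 proteins that link podoplanin to actin, Rdx (radixin) rose from 111 and 96.7 to 239 and 227 (1.18 ± 0.10), whereas Msn (moesin) went from 237 and 223 to 95.1 and 108 (-1.16 ± 0.11). Ezr (ezrin) differed by 0.22 ± 0.11 and did not pass (adjusted p = 0.111). Rhoc, a small GTPase, rose by 0.69 ± 0.12 and Rhoa differed by -0.0016 ± 0.09. Lgals8, the lectin galectin 8, rose by 0.44 ± 0.12. The membrane partners Cd44 (-0.17 ± 0.12) and Cd9 (0.21 ± 0.09) and the protease gene Mmp14 (0.22 ± 0.12) did not pass, and Clec1b, which encodes CLEC-2, was too low to be tested. With cells matched on RNA and ADT totals none of the 10 was called higher, Rdx standing at 0.44 ± 0.21, Rhoc at 0.60 ± 0.21 and Lgals8 at 0.17 ± 0.22, and Msn was still lower (-0.75 ± 0.22). In Ccl21a-rich cells, which Ccl21a itself chose, none of the 10 was called in either direction.

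Ccl21a rose from 1913 and 1822 to 7368 and 5892 CPM (1.82 ± 0.08). Reads of Ccl21a may be shared with near-identical copies of this gene, so its level is uncertain. Of the 10 chemokine and cytokine genes listed, 4 rose and 5 fell. Il7, the survival factor of early thymocytes, rose from 48.5 and 50.3 to 173 and 146 (1.67 ± 0.12), Cxcl12 by 1.30 ± 0.12 and Ccl11 by 2.06 ± 0.21. Ccl11 differed between podoplanin-low sums, at 75.6 and 191, and stood at 529 and 536 in podoplanin-high sums. Ccl19, which also has near-identical copies, differed by -1.80 ± 0.11, Ccl25 by -1.53 ± 0.09, Il15 by -1.38 ± 0.19, Ccl2 by -1.96 ± 0.26 and Cxcl10 by -0.75 ± 0.09. Kitl, the ligand of Kit, did not pass (0.18 ± 0.14). With cells matched on RNA and ADT totals, Il7 and Ccl11 were still higher, Kitl was called lower (-0.71), and the other 7 genes were not called, with Ccl2 (0.31) and Cxcl10 (0.28) on the other side of 0. In Ccl21a-rich cells, which Ccl21a itself chose, 1 of the 10 was higher and 1 lower.

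Of 10 transcription factors of the thymic epithelium, 4 rose and 5 fell. Beside Trp63, Isl1 rose by 1.72 ± 0.11, Pax1 by 1.63 ± 0.11 and Pax9 by 1.08 ± 0.12, the latter being pharyngeal pouch factors of the thymus anlage. Foxn1, the factor that drives TEC differentiation, went from 82.0 and 83.3 to 54.0 and 44.7 (-0.77 ± 0.13). Elf3 (-1.81 ± 0.14), Ehf (-1.03 ± 0.13), Grhl3 (-2.45 ± 0.51) and Tbx1 (-1.43 ± 0.43) were also lower. After matching on both totals, 4 of the 8 tested were higher and 2 lower, and in Ccl21a-rich cells 2 of 8 were higher and 2 lower.

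Interferon-induced genes were mostly higher, with 6 of 9 up and 2 down and a median of 0.88. Isg15 rose from 131 and 152 to 746 and 689.9 (2.34 ± 0.10) and Ifit3 by 2.34 ± 0.11, while Irf7 rose less (1.00 ± 0.11). B2m, the light chain of MHC class I, was lower (-0.68 ± 0.07). With cells matched on RNA and ADT totals, 3 of the 9 were higher and none lower, with a median of 0.33, and Irf7 (0.33 ± 0.23) and B2m (-0.33 ± 0.23) were not called. In Ccl21a-rich cells 3 were higher and none lower. Of the 8 cortical genes that the rule did not use, Ctsl, Ly75, Enpep and Cxcl12 were higher and Ccl25, Tbata, Foxn1 and Dll4 lower. Ctsl, a lysosomal protease of cTEC, went from 499 and 509.7 to 1920 and 1704 (1.84 ± 0.08). Psmb11 and Prss16, which the rule limits, are left out of these counts. With both included, 6 of the 10 cortical genes were higher and 4 lower. With cells matched on RNA and ADT totals, 3 of these 10 were higher and none lower, with a median of -0.03.

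Genes of the Aire stage of mTEC were lower throughout. All 12 listed fell, with a median of -2.93. Aire went from 535 and 638 to 66.3 and 112 CPM (-2.73 ± 0.12, adjusted p = 5.99e-09) and Fezf2, the other regulator of tissue-restricted genes, from 346 and 349 to 79.9 and 63.6 (-2.30 ± 0.12). Csn2, a casein gene used as a marker of Aire-stage cells, went from 703 and 614 to 74.3 and 77.1 (-3.10 ± 0.10). Cd80 fell by 2.76 and Cd40 by 2.83 on the log2 scale. Tnfrsf11a, which encodes the RANK receptor, differed by -2.03 ± 0.12 and Ccl22 by -3.77 ± 0.27. After thinning, 53.0% and 56.3% of podoplanin-low cells and 14.3% and 21.7% of podoplanin-high cells held an Aire UMI, and so did 16.5% and 19.2% of fibroblast-rule cells, which should lack it and had deeper libraries (medians of 11108.5 and 9736 UMIs). The podoplanin-high share lay below that of the fibroblast-rule cells in replicate 1 and above it in replicate 2, with overlapping 95% intervals, so no expression of Aire is read from it.

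Of the 10 MHC class II genes listed, 8 were lower and 1 higher, with a median of -0.69. H2-Aa went from 4500.3 and 4902 to 2878 and 2729 (-0.74 ± 0.07), Cd74, the invariant chain, from 12623 and 11979 to 8112 and 7806 (-0.63 ± 0.06), and Ciita, their transactivator, by -0.92 ± 0.11. H2-DMa, a chain of the peptide exchanger H2-DM, went the other way, from 111 and 127 to 259 and 229.7 (1.02 ± 0.11). With cells matched on RNA and ADT totals, 2 of the 10 genes were lower and 1 higher, with a median of 0.09. In Ccl21a-rich cells 2 were lower and none higher (median -0.36).

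The genes of cells that resemble other tissues were lower as well. In the tuft-like list 9 of 10 fell (median -2.26), in the microfold-like list 7 of 7 (median -2.19), in the gut and liver list 7 of the 7 tested (median -3.12) and in the neuroendocrine list 6 of the 6 tested (median -3.17). Trpm5, the cation channel of tuft cells, went from 58.6 and 39.7 to 13.2 and 6.38 (-2.40 ± 0.20). Spib, the factor of microfold cells, went from 101.8 and 106 to 16.4 and 21.8 (-2.41 ± 0.15) and Ccl20 by -2.98 ± 0.15. Insm1, a factor of endocrine differentiation, fell from 189 and 149.8 to 10.4 and 17.1 (-3.50 ± 0.19) and the apolipoprotein gene Apoa4 from 48.1 and 130 to 8.79 and 21.8. Dclk1, another tuft gene, did not pass (-0.27 ± 0.17). In the keratinocyte-like list 4 of 8 tested fell and none rose. Ranked by the podoplanin count alone, 4 of its genes fell and 1 rose, and at 1 week 1 of 3 tested rose and none fell. Of 7 proliferation genes 4 fell, among them Mki67 from 44.0 and 60.0 to 11.99 and 21.8 (-1.60 ± 0.17), and Birc5 did not pass. Without cells holding a UMI of other cell types, none of the 6 proliferation genes tested was called, with a median of 0.02, and at 1 week none of the 7 was called.

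Many of these calls were lost among UEA1-rich or Ccl21a-rich cells. The sums of these subsets held fewer cells and UMIs than the main comparison, which also limits what could be called. In UEA1-rich cells, those above the median UEA1 count of their well, 1 of 6 gut and liver genes tested was lower (median -0.86), 3 of 6 neuroendocrine genes (median -0.91), 5 of 6 microfold-like genes (median -1.75) and 5 of 9 tuft-like genes (median -1.04), while the tuft gene Dclk1 was higher (0.70). Apoa4 did not pass there, going from 41.7 to 166 CPM in replicate 1 and from 68.0 to 13.2 in replicate 2. Of the keratinocyte-like genes, Krtdap went from 34.9 and 173 to 230 and 830 CPM in UEA1-rich cells and Spink5 from 36.6 and 158 to 18.0 and 60.8. In Ccl21a-rich cells 1 of 4 gut and liver genes, 2 of 4 neuroendocrine genes, 2 of 5 microfold-like genes and 5 of 7 tuft-like genes were lower. With cells matched on RNA and ADT totals, 3 of 6 gut and liver genes (median -1.43), 5 of 6 neuroendocrine, 6 of 7 microfold-like and 10 of 10 tuft-like genes were lower.

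**Figure D2:**
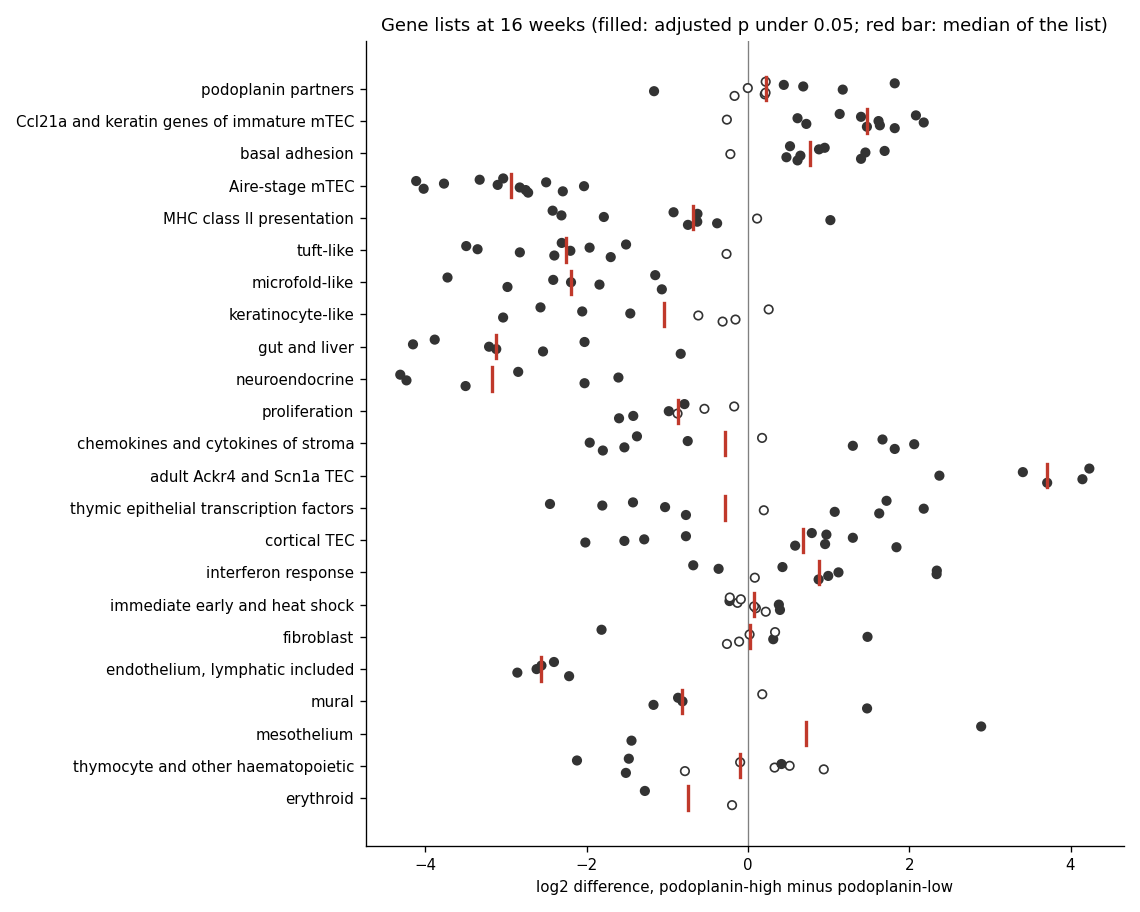
Log2 difference (podoplanin-high minus podoplanin-low, horizontal axis) of each tested gene of the 23 lists at 16 weeks, with filled points for an adjusted p under 0.05 and a red bar at the median of the list. The Aire-stage, tuft-like, microfold-like, gut and liver and neuroendocrine lists lie left of 0, the Ackr4 list lies right of it, as do the keratin list but for Plet1 and the basal adhesion list but for Col17a1, and podoplanin partners lie on both sides.

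The 12 genes with the largest decrease were found in few cells. Cplx3, a synaptic complexin, Slc26a9, an anion transporter, and Ptprr, a receptor phosphatase, had no UMI in either podoplanin-high sum. Against a floor of 3 UMIs over the group, they were at least 20.0-fold, 19.6-fold and 16.6-fold lower, a bound that covers counting error only. Stxbp5l had 151 UMIs in podoplanin-low cells and 1 in podoplanin-high cells, a ratio of 151 with an exact 95% counting interval of 26.7 to 5994. Kif1a, a kinesin of neurons, had 97 and 1 (ratio 96.8, interval 17.0 to 3864). Lcn6 had 141 and 3, but 114 of the 119 podoplanin-low UMIs of replicate 1 came from 1 cell. Likewise 134 of 150 Cxcl3 UMIs and 234 of 344 Clca3b UMIs in replicate 1, and 46 of 53 Cplx3 UMIs in replicate 2, came from 1 cell each. Jph4, Pax3, Pou3f3 and Sphkap make up the rest, with 50 to 59 UMIs in podoplanin-low cells and 1 in podoplanin-high cells. For such genes the sums rest on a few cells that ranked low in podoplanin.

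Over all 4 rank groups, genes differed in where they changed. Without depth matching, Trp63 stood at 72.1, 93.7, 252 and 336 CPM in rank groups 1 to 4 of replicate 1 and at 82.3, 110, 215 and 355 in replicate 2. Ackr4 stood at 15.5, 17.2, 43.2 and 210 and at 12.1, 15.7, 36.4 and 206, so that the step lay between groups 3 and 4. Ccl21a was highest in rank group 3 and not in group 4, with 9590 and 9233 CPM against 7344 and 6736. Aire was alike in groups 1 and 2 (586 and 593 in replicate 1, 638 and 549 in replicate 2) and stood at 60.2 and 104 in group 4.

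**Figure D3:**
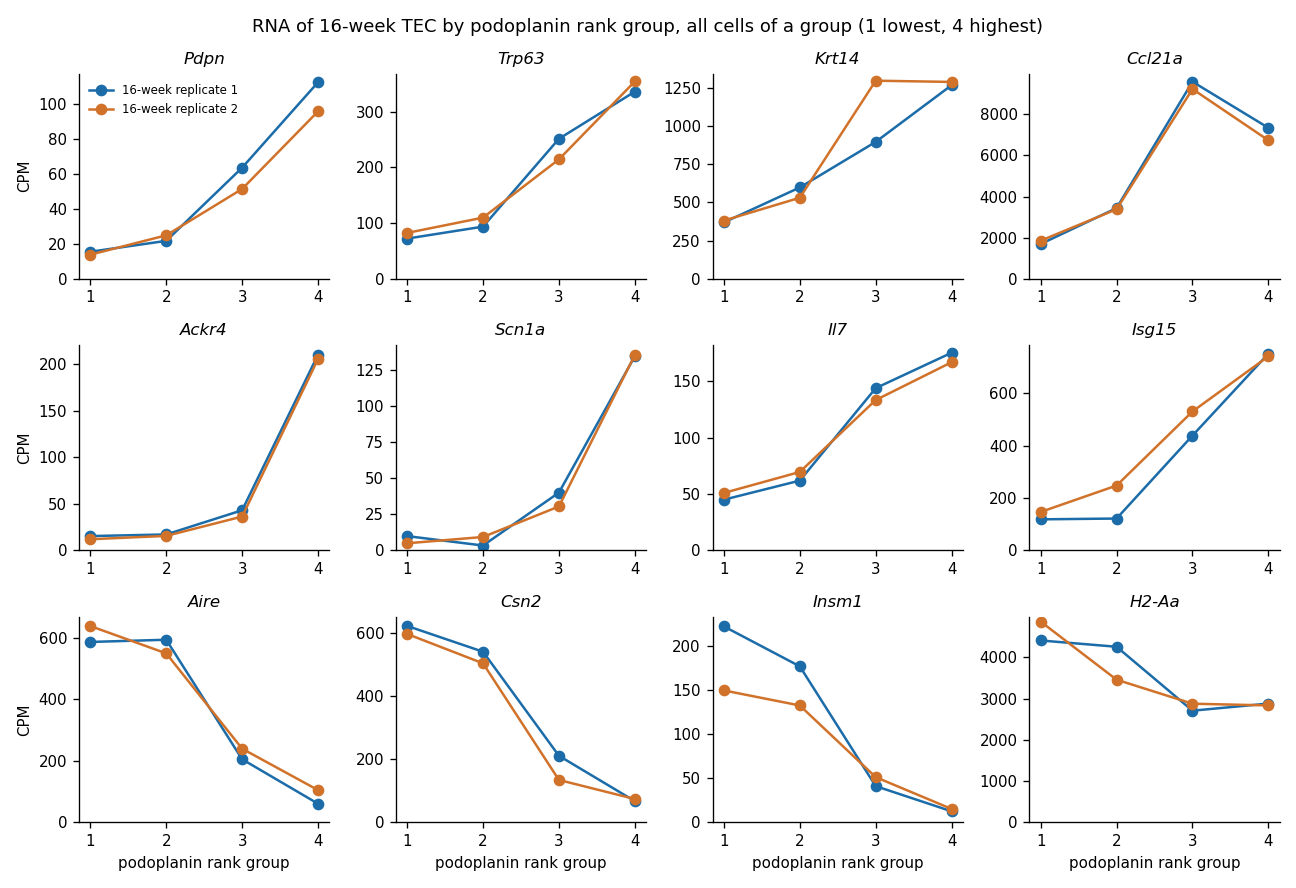
Level of 12 genes (vertical axes, CPM, linear, from 0) in all cells of the 4 podoplanin rank groups (horizontal axes, 1 lowest, 4 highest), with a line for each 16-week replicate. Both wells run together, Ackr4 and Scn1a step up in group 4, Ccl21a is highest in group 3, and Aire, Csn2 and Insm1 are highest in groups 1 and 2.

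Markers of other cells moved with the ranking, and their part in the results was not tested. In the endothelial list all 5 tested genes were lower, Pecam1 from 114 and 95.8 to 21.98 and 22.1 and Cdh5 from 60.6 and 52.5 to 8.79 and 6.94, and the summed level of its 7 genes was 305 and 259 in podoplanin-low against 53.6 and 50.9 in podoplanin-high sums. The summed haematopoietic markers stood at 418 and 362 against 144 and 169. Those of fibroblasts stood the other way, at 532 and 591 against 981 and 1302, of which Dcn made up most (321 and 331 against 789.8 and 1037), a gene that the rule itself limits. The mural list summed to 675 and 801 against 916 and 897, with Acta2 alone rising (1.48 ± 0.10) and 3 of 5 genes lower. In UEA1-rich cells Acta2 also rose, from 179 and 215 to 845 and 826 CPM. In cells not above the median UEA1 count it went from 562 and 645 to 364 and 435. In cells not above the median Ccl21a share it went from 197 and 313 to 136 and 262. None of the lists above had a gene at 0 in any of the 4 sums of the main comparison. Of the cells, 725 of 1148 and 1719 of 2806 held a UMI of Pecam1, Cdh5, Ptprc, Cd3e, Pdgfra, Pdgfrb, Rgs5 or Upk3b. Without them 1137 of 10447 genes tested were higher and 1733 lower from 70 and 200 cells a sum. Of these, 1087 and 1630 were the same calls as in the main comparison. They made up 38.5% of the 2820 higher and 67.3% of the 2422 lower main calls tested in both.

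RNA and tags were set side by side for 24 other tags, each against 1 gene, a list drawn up after values had been seen. MHCII, which is made of chains of several genes, was set against H2-Aa. Of the 23 genes tested, 19 were called. In 12 of them RNA and mean CLR went the same way in both wells, in 5 they went opposite ways, and in 2 the tag had no common sign. Ly6a, which encodes Sca1, rose from 429 and 565 to 1522 and 1513 CPM (1.62 ± 0.10), Itga1, which encodes CD49a, by 0.99 ± 0.11 and Cd200 by 1.58 ± 0.11. With cells matched on RNA and ADT totals, Itga1 went from 150 to 89.2 CPM in replicate 1 and from 98.6 to 116 in replicate 2. Kit, which encodes CD117, differed by -3.00 ± 0.28 and Cd274 by -0.49 ± 0.12. The 5 that went opposite ways were Prom1, Bst1, Cd83, Madcam1 and Ly6d, named after their values were seen, all with a median tag count of at most 3 in every group. Madcam1 RNA went from 12.5 and 30.7 to 3.997 and 3.19 while its tag, the one that shares 8 bases with podoplanin's, had median counts of 1 and 1 in podoplanin-low and 3 and 2 in podoplanin-high cells.

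Because the total ADT count and the UEA1 count ran opposite to podoplanin, the comparison was repeated with these held closer. Where cells were matched on both RNA and ADT totals, 93 and 240 cells a sum remained. Of 11780 genes, 707 were then higher (6.0%) and 1293 lower (11.0%). Of the genes called higher in the main comparison and tested in both, 23.1% were called again and 94.0% kept their sign, and for lower genes these shares were 44.4% and 95.6%. Pdpn (2.24 ± 0.27), Scn1a (2.93 ± 0.29), Ackr4 (2.56 ± 0.26), Trp63 (1.91 ± 0.23) and Aire (-1.57 ± 0.24) were still called. Ccl21a (0.54 ± 0.24, adjusted p = 0.138), Cxcl12 (0.03 ± 0.24) and Foxn1 (-0.10 ± 0.24) were not, and H2-Aa (0.09 ± 0.23) and Cd74 (0.08) had the opposite sign without passing. All 5 genes of the Ackr4 list and 8 of the 10 Aire-stage genes tested were called as before.

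The same ranking was then drawn within cells above and within cells not above the median UEA1 count of their well, a split added after the data had been seen. In the UEA1-rich cells 1232 of 13299 genes were higher (9.26%) and 1640 lower (12.3%). In the UEA1-poor cells 1692 of 12036 were higher (14.1%) and 2425 lower (20.1%). The UEA1-rich sums rested on 116 and 302 cells and the UEA1-poor sums on 97 and 256, fewer than in the main comparison. Trp63 rose in both (1.74 ± 0.13 and 2.07 ± 0.14), as did Pdpn (2.08 ± 0.22 and 2.40 ± 0.21) and Ackr4 (2.19 ± 0.29 and 3.40 ± 0.20). Ackr4 levels differed between the subsets, with 42.8 and 37.99 CPM in UEA1-rich and 289 and 261 in UEA1-poor podoplanin-high cells. Ccl21a went from 1516 and 1652 to 10822 and 9997 in UEA1-rich cells (2.72 ± 0.11) and from 3290.0 and 2107 to 4199 and 2884 in UEA1-poor cells (0.38 ± 0.07). All Aire-stage genes tested fell, 12 of 12 and 9 of 9. The difference between the subsets was not tested.

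Cells were also split at the median Ccl21a share of their well. This split limits the range of Ccl21a itself, so its own difference within a subset is not read as a result. In Ccl21a-rich cells 301 of 10526 genes were higher (2.86%) and 641 lower (6.09%). In Ccl21a-poor cells 2484 of 13385 were higher (18.6%) and 3204 lower (23.9%). The Ccl21a-rich sums held 99 and 241 cells, with 719717 and 1471030 UMIs in the podoplanin-low sums. The Ccl21a-poor sums held 107 and 278 cells, with 1314564 and 3078403 UMIs there. Sums of fewer UMIs limit what could be called, and the part of this in the counts was not tested. Pdpn rose in both, by 1.13 ± 0.24 from 32.0 and 32.0 to 82.7 and 67.4 in Ccl21a-rich and by 3.17 ± 0.19 from 13.7 and 9.75 to 117 and 93.0 in Ccl21a-poor cells. Ackr4 rose from 23.6 and 17.0 to 30.8 and 43.6 (0.93 ± 0.31) in the former and from 9.89 and 9.42 to 298 and 299 (4.93 ± 0.18) in the latter. Krt5 (-0.0077 ± 0.18), Ctsl (-0.013 ± 0.18) and Il7 (0.28 ± 0.18) did not pass in Ccl21a-rich cells and rose in Ccl21a-poor cells, by 1.75 ± 0.11, 2.34 ± 0.11 and 1.92 ± 0.15. Trp63, Isl1, Isg15 and F3 rose and Aire and Csn2 fell in both. Whether the subsets differed was not tested.

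**Figure D4:**
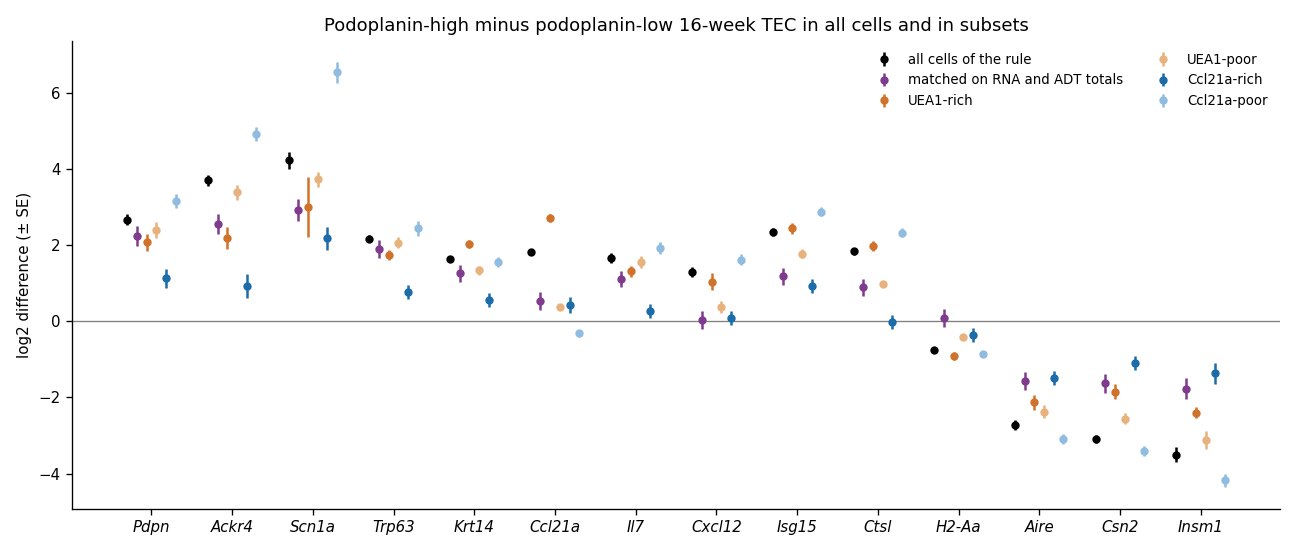
Log2 difference (podoplanin-high minus podoplanin-low, with SE bars, vertical axis) of 14 genes in all 16-week cells of the rule, after matching on RNA and ADT totals, and within cells rich or poor in UEA1 or Ccl21a, each in its own colour. Pdpn, Ackr4, Scn1a and Trp63 lie above 0 and Aire, Csn2 and Insm1 below 0 in all 6 settings, whereas Ccl21a, Cxcl12, Ctsl and H2-Aa come near 0 or cross it in at least 1. Ccl21a is also the gene by which the Ccl21a-rich and Ccl21a-poor cells were split.

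The 1-week wells, which the rule did not use, came from other mice. Their podoplanin-high cells had a median of 162 and 162.5 podoplanin counts against 2 and 1 in podoplanin-low cells. Here the total ADT count ran with podoplanin (4486.5 and 5256 against 1127 and 682), opposite to 16 weeks. Also opposite to 16 weeks, mean CLR was higher for MHCII (1.03 and 1.67), UEA1 (0.35 and 0.67) and CD40 (0.43 and 0.44). It was lower for CD49a (-0.51 and -0.72) and Sca1 (-0.71 and -0.30). CD80 (-2.36 and -2.06) and CD73 (2.41 and 2.36) differed as at 16 weeks. After matching, 54 and 48 cells a sum remained, and 777 of 9333 genes were higher (8.33%) and 1224 lower (13.1%). DESeq2 called 156 and 434. The podoplanin-low cells of this age held much RNA of other cells. The mural list summed to 2383 and 5291 CPM in podoplanin-low against 285 and 699 in podoplanin-high sums, and the endothelial list to 679.9 and 1131 against 24.0 and 207. Of 352 and 313 cells, 293 and 272 held a UMI of the 8 genes of other cells named above. The part of these cells in the results was not tested.

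At both ages 9292 genes were tested, of which 2536 were called higher and 2085 lower at 16 weeks. Of these, 559 higher genes (22.04%) and 920 lower genes (44.1%) were called the same way at 1 week. Another 62 and 45 were called the opposite way, and 78.5% and 82.9% kept their sign. Read from 1 week, the genes called the same way were 72.1% of 775 higher and 76.2% of 1207 lower genes. Pdpn went from 2.66 and 12.1 to 76.0 and 148 CPM (3.87 ± 0.40), Ackr4 from 9.31 and 16.2 to 163 and 241 (3.92 ± 0.32), and Trp63 from 45.2 and 31.0 to 171 and 178 (2.15 ± 0.28). Scn1a had 1 and 0 UMIs in podoplanin-low and 14 and 20 in podoplanin-high sums. Krt14 (2.34 ± 0.26), Isg15 (2.05 ± 0.22), Il7 (1.70 ± 0.30) and Nrtn (2.96 ± 0.34) rose too. Prelp, of the same list as Ackr4 and Nrtn, was not called at 1 week, at 10.6 and 16.2 CPM in podoplanin-low and 21.3 and 13.7 in podoplanin-high sums (0.33 ± 0.52). Aire (-2.46 ± 0.27), Csn2 (-3.90 ± 0.31) and Insm1 (-2.45 ± 0.33) fell, and 9 of the 10 Aire-stage genes tested were lower.

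The difference between ages was tested on all 8 sums, and 307 of 13587 genes had a larger log2 difference at 16 weeks (2.26%) and 270 a smaller one (1.99%). Age and pool cannot be told apart in this test. Ccl21a rose more at 1 week, from 219.5 and 240.2 to 2898 and 3656 (3.78 ± 0.21), and the difference of differences was -2.06 ± 0.18 (adjusted p = 0.000209). Krt5 showed the same (3.62 ± 0.28 at 1 week, -2.25 ± 0.24). Ly6a turned from higher at 16 weeks to lower at 1 week, at 389 and 489.8 in podoplanin-low against 89.3 and 249 in podoplanin-high sums (-1.56 ± 0.27). Acta2, a gene of mural cells, turned likewise, from 403 and 1683 to 65.3 and 356 (-2.46 ± 0.23). Cxcl10 rose at 1 week (1.94 ± 0.20) and was lower at 16 weeks. No difference between ages passed for Pdpn (-1.30), Ackr4 (-0.33), Trp63 (-0.07), Aire (-0.38) or Isg15 (0.20).

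**Figure D5:**
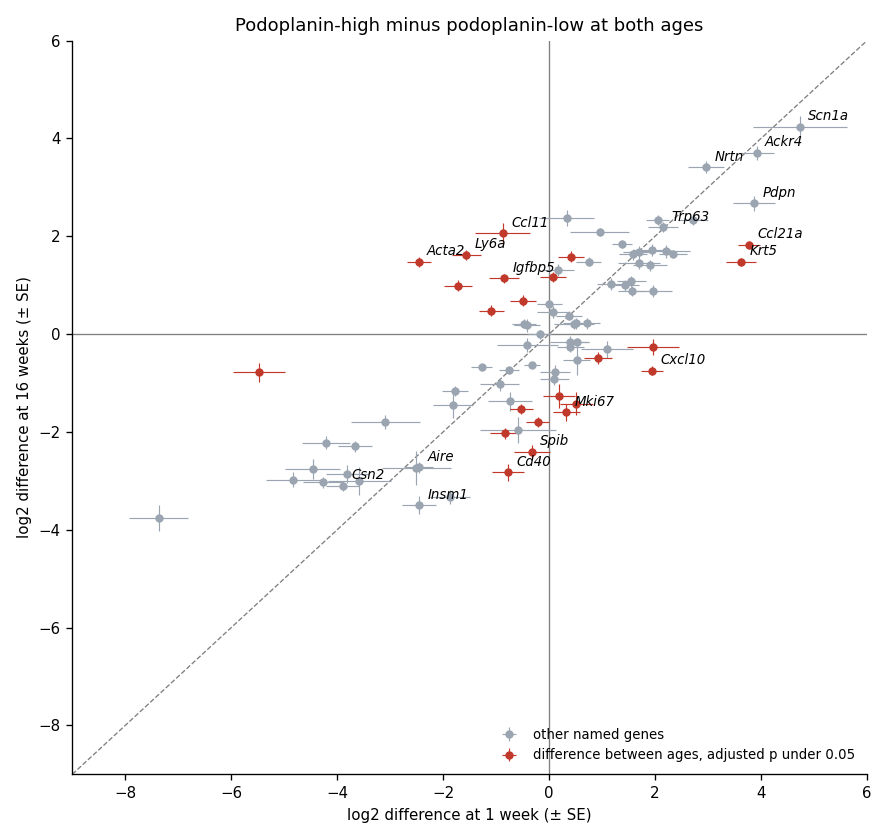
Log2 difference (podoplanin-high minus podoplanin-low) with SE bars at 1 week (horizontal axis) and at 16 weeks (vertical axis) of the named genes tested at both ages, in red where the difference between ages had an adjusted p under 0.05, with a dashed line of equal values. Ackr4, Nrtn, Scn1a and Trp63 lie near the line, while Ly6a, Acta2 and Ccl11 are above 0 at 16 weeks and below 0 at 1 week.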

How the data were processed

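Alignment by the authors used STARsolo, version 2.7.9a per the submitters' processing notes, on mm10. They kept cells of at least 2000 UMIs and deposited raw UMI counts per gene and cell and raw ADT counts per tag and cell, neither normalised, with a list of the tag sequences. Each cell was assigned to its age and well by the suffix of its name. Of 55487 gene identifiers, 55141 matched a symbol in GENCODE M21 (GRCm38).

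The cells, lists and tests were chosen with earlier results of these data known. Rank groups, depth matching in bins of 0.25 log2 and sums were made per well in Python 3.11.15 (numpy 2.4.6, scipy 1.17.1). Sums were tested with edgeR 4.0.16 in R 4.3.3 (TMM, filterByExpr with a minimum count of 10, quasi-likelihood, Benjamini-Hochberg over all genes tested), which was first tested on data with known changes. DESeq2 1.42.0 was an alternative. The wells of an age are loadings of 1 pool, so the well was the block, which pairs the sums of a well. Genes named are list genes and the 12 with the largest difference in each direction among those with an adjusted p under 0.05, the same sign in both wells and at least 50 UMIs, without Gm and Rik symbols or bare identifiers. Exceptions are named as such, and some list genes are counted but not reported here by name. Doublets were not removed in the main comparison. In an alternative, the highest scrublet scores (scanpy 1.11.5) were left out at 0.8% per 1000 cells. Thinned shares have exact binomial 95% intervals. Per the methods, UMIs that hit several genes were filtered by STARsolo (MultiGeneUMI_CR), and a limit was set on the places a read may match. The labels name version 2 and the methods version 3 of the reagent kit.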

Additional observations from a re-analysis of the deposited data

Results flagged for a closer look

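The named genes below passed the test of the difference between the ages, that is, of the log2 difference at 16 weeks minus that at 1 week (edgeR over all 8 sums, adjusted p under 0.05). Age and pool cannot be told apart. The difference was above 0 for Fmod (5.87), Ly6d (4.70), Acta2 (3.83), Ly6a (3.06), Ccl11 (2.89), Itga1 (2.62), Igfbp5 (1.88), Itgb1 (1.48), Rhoc (1.09), Cd200 (1.07) and Rdx (1.00). It was below 0 for Cxcl10 (-2.78), Dclk1 (-2.36), Krt5 (-2.25), Spib (-2.20), Cd40 (-2.17), Ccl21a (-2.06), Top2a (-2.03), Mki67 (-2.005), Ccl19 (-1.68), Cd83 (-1.55), Cd274 (-1.52), Tnfrsf11a (-1.31) and Ccl25 (-1.11). Fmod was too low to be tested at 1 week alone, with 2 and 19 UMIs in podoplanin-low and 2 and 4 in podoplanin-high sums. The mural and endothelial RNA of the 1-week podoplanin-low sums, with Acta2 among the mural genes, moved with these differences, and its part in them was not tested.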

How the results depend on the processing

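Against 3200 higher and 4093 lower genes, 707 and 1293 were called after matching on RNA and ADT totals, 1322 and 1740 with each cell thinned to 2000 UMIs, and 1137 and 1733 without cells holding a UMI of other cells. Without cells holding a Psmb11 or Prss16 UMI 1282 and 2004 were called and by DESeq2 1126 and 1984. In UEA1-rich cells these were 1232 and 1640, in UEA1-poor cells 1692 and 2425 and in Ccl21a-rich cells 301 and 641. With the 1-week wells in the fit 2089 were higher and 3262 lower. Ranking by podoplanin per total ADT count gave 3173 and 3972. Leaving out either 16-week well, with the spread taken from the 1-week wells, left 647 to 660 higher and 1286 to 1548 lower. At 1 week, DESeq2 called 156 and 434, no depth matching gave 1638 and 2245, and leaving out a well gave 778 to 968 and 1191 to 1605. The count of genes that differed between ages, 577, ranged from 360 without 16-week replicate 1 to 1349 without 1-week replicate 1. Without the block that pairs the sums of a well, 2992 and 3904 genes were called at 16 weeks and 560 and 974 at 1 week. UEA1 splits, the Epcam and mesothelial UMI settings and the 1-week and age settings without a well were chosen after seeing the data.

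Of 2326 pairs of a called named gene and a setting, 2124 kept direction and call, 186 lost the call and 16 changed direction. The Ccl21a-rich and Ccl21a-poor cells are not among the settings of this count. In Ccl21a-rich cells Krt5 and Ctsl had slightly negative log2 differences that did not pass. In Ccl21a-poor cells Acta2 went from 197 and 313 to 136 and 262 CPM. Pdpn, Ackr4, Trp63 and Aire kept direction and call in every counted setting in which they were tested. Kitl and Dclk1, given below with them, had not passed in the main comparison. After matching on both totals, the log2 difference turned for H2-Aa (0.088), Cd74 (0.085), Ccl2 (0.31), Cxcl10 (0.28), Kitl (-0.71), Itga1 (-0.20), Cd83 (0.39) and Ly6d (0.50). In UEA1-poor cells it turned for Itgb1 (-0.13), Ccl2 (0.57), Kitl (-0.49), Acta2 (-0.62), Itga1 (-0.011) and Cd83 (0.27), and in UEA1-rich cells for Dclk1 (0.70), Epcam (0.074) and Ly6d (0.29). It turned for Cxcl12 (-0.058) and Kitl (-0.93) without Psmb11 or Prss16 UMIs and for Top2a (0.13) without cells holding UMIs of other cells. The cause was not tested. At 1 week, sums of 48 and 54 cells limit what could be called.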
